A study of Mus musculus with 9 samples.

Results

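Il1a, Il1b, Il1rn, Tnf, Il6, Il10, Il18, Cxcl1 and Cxcl2 encode inflammatory cytokines, a decoy ligand and the chemokines that draw neutrophils. They were followed through 9 single-cell RNA-seq libraries of mouse liver. They were taken by name, with earlier results of these data known. They are 9 of the 27998 genes in the count table, and all 9 were detected. All libraries came from C57BL/6 mice with the ROSA26-rtTA-IRES-EGFP allele, in which rtTA, the transactivator that doxycycline switches on, is expressed after Cre removes a stop. The WT group (n = 2) had no further transgene in its label and received doxycycline in the food for 7 days. The YAP3d (n = 4) and YAP7d (n = 3) groups also carried tetYAP, a tet-driven transgene for constitutively active YAP, a co-activator of transcription, and received doxycycline for 3 and 7 days. The methods describe a cross with Alb-CRE, which directs the induction to hepatocytes, and WT and YAP3d therefore differed both in transgene and in length of feeding. Ages were not given, and nothing states whether each library came from a separate mouse, so the p-values measure the spread between these libraries. The cells were non-hepatocytes released by enzyme digestion of the liver at 37 degrees. Hepatocytes, in which the transgene is induced, were therefore almost missing from what was measured, with 115 hepatocyte-like cells in all and 3 in WT.

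Interleukin 1 alpha and beta act through the same receptor, Il1r1, and Il1rn encodes an antagonist that occupies that receptor without signalling. Il1b and Il18 are made as inactive precursors that the inflammasome matures, so transcript levels do not give the released cytokine. Tnf and Il6 drive the acute response of the liver, Il10 restrains it, and Cxcl1 and Cxcl2 recruit neutrophils through Cxcr2. In the healthy liver, Kupffer cells, the resident macrophages, and sinusoidal endothelial cells are known sources of these factors.

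Il1a and Il1b lie next to each other on chromosome 2 of GRCm38.p6 (129299609 to 129310186 and 129364569 to 129371164), with 54.4 kb between them. Cxcl1 and Cxcl2 are neighbours on chromosome 5 (90891245 to 90893121 and 90903899 to 90905938), with 10.8 kb between them. Within each pair the named class with the highest level differed, as described below. The 250 bases upstream of the listed start of these 4 genes are therefore shown, 5′ to 3′ on the strand of the gene, from RefSeq. The capitals mark matches on either strand to 3 motif forms: GGG followed by any 2 bases and TTTCC, a form bound by NF-kB, TATAAA, the TATA box, and TGANTCA, a form bound by AP-1. The table lists a start inside the gene bounds given above for Il1a and Il1b, so most of the Il1a region and the last bases of the Il1b region lie within those bounds. In order, the regions are chr2:129309973-129310222 (minus strand), chr2:129371140-129371389 (minus), chr5:90890995-90891244 (plus) and chr5:90903649-90903898 (plus).
Il1a: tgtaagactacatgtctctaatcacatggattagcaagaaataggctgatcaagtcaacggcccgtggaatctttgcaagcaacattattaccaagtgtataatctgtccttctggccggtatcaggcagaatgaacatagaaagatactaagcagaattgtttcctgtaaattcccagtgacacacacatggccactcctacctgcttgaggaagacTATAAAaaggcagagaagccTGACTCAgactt
Il1b: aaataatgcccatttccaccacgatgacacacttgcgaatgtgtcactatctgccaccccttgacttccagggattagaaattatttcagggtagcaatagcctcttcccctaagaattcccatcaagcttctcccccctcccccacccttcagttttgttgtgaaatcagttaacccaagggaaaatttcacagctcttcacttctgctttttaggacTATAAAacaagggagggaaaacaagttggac
Cxcl1: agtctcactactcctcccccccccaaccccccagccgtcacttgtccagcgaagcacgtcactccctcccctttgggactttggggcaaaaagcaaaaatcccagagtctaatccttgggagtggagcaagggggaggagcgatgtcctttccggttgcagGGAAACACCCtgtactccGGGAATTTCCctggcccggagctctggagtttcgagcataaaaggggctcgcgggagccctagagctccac
Cxcl2: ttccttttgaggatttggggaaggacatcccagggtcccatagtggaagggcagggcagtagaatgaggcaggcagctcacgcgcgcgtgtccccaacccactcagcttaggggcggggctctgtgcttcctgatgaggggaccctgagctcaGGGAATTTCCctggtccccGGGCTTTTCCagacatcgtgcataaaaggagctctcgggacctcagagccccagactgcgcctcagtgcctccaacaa

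Both chemokine genes held 2 matches to the NF-kB form, 71 to 62 and 89 to 80 bases before the start in Cxcl1 and 97 to 88 and 78 to 69 bases before it in Cxcl2. Neither printed interleukin region held that form. Il1a and Il1b instead had a TATA box at 32 to 27 and 31 to 26 bases, and Il1a an AP-1 form at 12 to 6 bases. Of 8 members in the table, 4 had the NF-kB form in at least 1 listed region (Cxcl1, Cxcl2, Il6 and Il1rn), 4 the TATA box (Il1a, Il1b, Tnf and, on the other strand, Il18) and 3 the AP-1 form (Il1a, Il6 and Il1rn). Of all 32851 upstream regions, 1.41%, 12.4% and 6.75% held them. A match is only a description of these letters.

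The table held 8562 cells, of which 8527 had at least 200 genes and were kept. Libraries held 293 to 2554 cells and 1314878 to 25056881 UMIs (unique molecular identifiers, each 1 captured RNA molecule). The median UMIs per cell were 3190.5 and 4358 in WT, 3380 to 5069.5 in YAP3d and 5717 to 11471.5 in YAP7d. Shares of cells with a UMI are therefore also given after thinning each cell to 2000 UMIs, which leaves out the cells below that depth. The clusters gave 14 classes, each called by the type whose markers it raised, and 1 cluster of 22 cells stayed unnamed. The classes were 1953 endothelial-like, 1774 T-cell-like, 1160 B-cell-like, 1067 macrophage-like, 1014 monocyte-like, 542 NK-like, 321 type 2 dendritic-like, 160 type 1 dendritic-like, 154 neutrophil-like, 151 plasmacytoid dendritic-like, 115 hepatocyte-like, 49 cholangiocyte-like, 23 stellate-like and 22 basophil- or mast-cell-like cells. The type 2 dendritic-like class was a single cluster with 3 of its own markers among its top 10 genes, which also held Elane, Ctsg, Mpo and Prtn3, genes of granulocyte precursors. Between WT, YAP3d and YAP7d the mean share of macrophage-like cells was 5.28% ± 0.68 (SD), 6.53% ± 4.01 and 31.5% ± 12.1, and that of endothelial-like cells 44.3% ± 12.3, 26.8% ± 11.3 and 4.16% ± 0.76. These shares bear on every level over all cells. 46 barcodes occurred in more than 1 library, in 93 cells.

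The members were highest in different classes, some of them shared. Among the named classes, Il1b and Cxcl2 were mainly myeloid transcripts with their highest level in neutrophil-like cells. For Cxcl2 the unnamed cells of WT 2 were higher still, as given below. Il1a was highest in endothelial-like cells, although its neighbour Il1b was near background there. Il18 was highest in macrophage-like cells, and Cxcl1 in a few cholangiocyte-like, stellate-like and unnamed cells. Levels are given as CPM (counts scaled to 1000000 UMIs of the class), per library or as a mean ± SD over the libraries with at least 10 cells of the class. The order of classes is a description without a test. For comparisons between groups, each adjusted p comes from the quasi-likelihood test of edgeR, fitted across all genes of a class, and a gene passed when it was below 0.05.

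**Figure D1:**
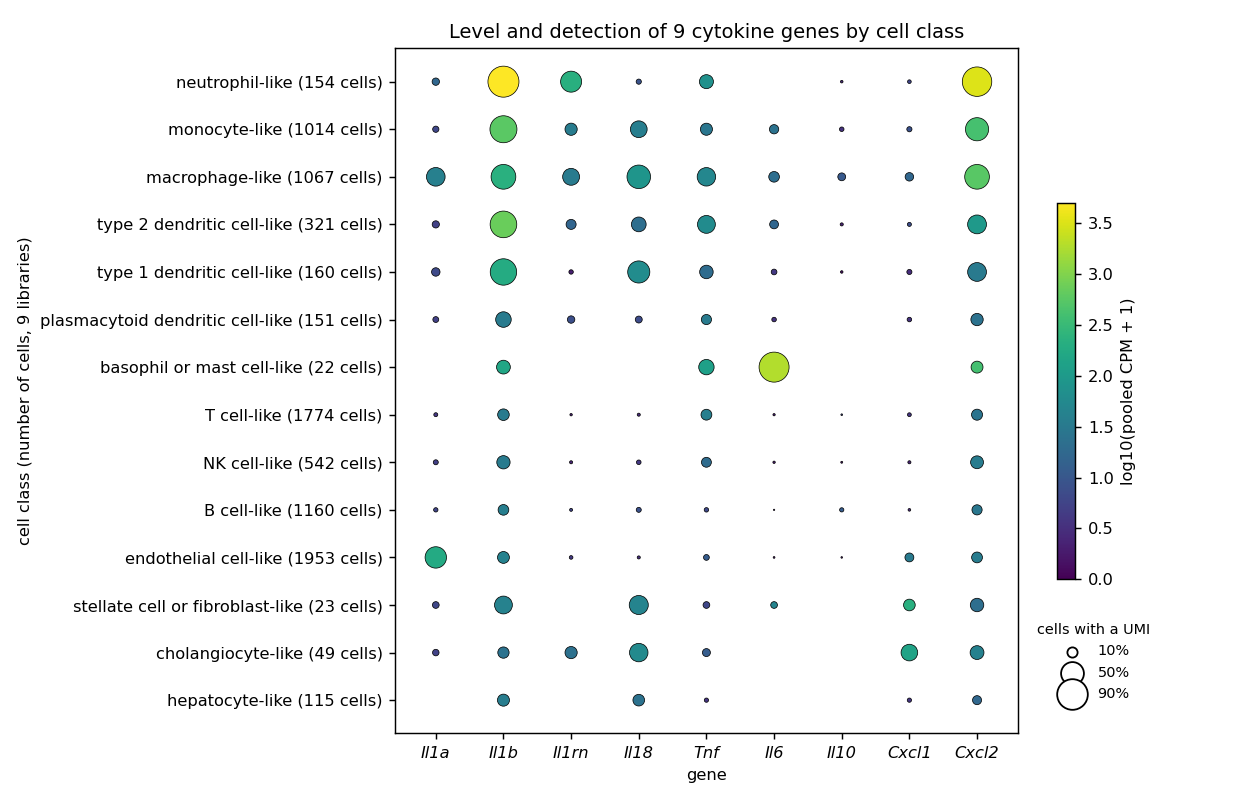
Level and detection of the 9 genes in the 14 named classes. Colour gives log10 of the pooled CPM plus 1, and the size of the point gives the percentage of cells with at least 1 UMI. Il1b was pooled at 5081 CPM in neutrophil-like cells, Il1a at 177 CPM in endothelial-like cells and Il6 at 1917 CPM in basophil- or mast-cell-like cells.

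Il1b, the main secreted form of interleukin 1, gave 17257 UMIs in 30.4% of cells. Over libraries its mean level was 7878 ± 4522 CPM in neutrophil-like cells (n = 4), 731 ± 411 in monocyte-like (n = 7), 549 ± 286 in type 2 dendritic-like (the cluster with granulocyte precursor genes), 275 ± 176 in macrophage-like (n = 9) and 150 ± 49.2 in type 1 dendritic-like cells. The step from neutrophil-like to monocyte-like cells was seen in 4 of 4 libraries that held both and was larger than the spread. The following steps lay within the spread. A Il1b UMI was found in 92.2% of neutrophil-like, 69.8% of monocyte-like and 58.6% of macrophage-like cells, and in 77.5, 42.1 and 25.8% of them after thinning. B-cell-like, T-cell-like, NK-like and endothelial-like cells showed 11.0, 12.9, 17.0 and 13.5%, or 5.76, 5.97, 5.70 and 6.13% after thinning, at median depths of 3220, 4763, 5129 and 4357 UMIs against 2433.5 in neutrophil-like and 10139.5 in monocyte-like cells. These like shares in unrelated classes were read as background, which differed between libraries. In YAP7d 3 an Il1b UMI was seen in 64.1% of endothelial-like, 39.3% of NK-like, 36.2% of B-cell-like and 33.3% of T-cell-like cells, against 11.9, 10.1, 8.74 and 10% in WT 2. After thinning, the endothelial-like, B-cell-like and T-cell-like shares were 14.1, 14.9 and 13.9% in YAP7d 3 and 5.80, 3.54 and 4.40% in WT 2.

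In neutrophil-like cells of WT the Il1b level was 11929 CPM (5 cells) and 12933 CPM. YAP3d gave 11179 (6 cells), 9926, 16159 (6 cells) and 6111 CPM, and YAP7d gave 2295 (5 cells), 10604 (1 cell) and 2543 CPM. YAP7d therefore overlapped the other groups only through a library with 1 neutrophil-like cell. Too few libraries held 10 such cells (WT 1, YAP3d 2, YAP7d 1) for a fit, and these differences were not tested. The 12 immediate early genes of the dissociation list summed to 27436.5 and 24968 CPM in these cells of WT, to 11372 to 30184.5 CPM in YAP3d and to 9420, 7749 and 6194 CPM in YAP7d, so every YAP7d library was below all others. Their part in the Il1b values was not tested. The median depth of neutrophil-like cells was 1911, 2040 and 6078.5 UMIs in WT, YAP3d and YAP7d. At 2000 UMIs a Il1b UMI was seen in 10 of 10 WT cells, in 92.1% of 38 YAP3d cells and in 63.0% of 54 YAP7d cells, with 19 WT cells, 33 YAP3d cells and 0 YAP7d cells left out as shallower.

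In macrophage-like cells the Il1b level was 166 and 590 CPM in WT, 327, 135, 230 and 526 in YAP3d, and 177, 80.6 and 240 in YAP7d. The highest library was WT 2, while WT 1 lay among the lower ones, and the groups overlapped. The log2 fold change of YAP7d against WT was -1.29 (SE 0.54) and did not pass (adjusted p = 0.211). Without WT 2 the log2 fold change was 0.12, and with the replicate number as a block, although the numbers did not pair the libraries, it passed (-1.72, adjusted p = 0.0021). Restricted to the clusters that raised markers of Kupffer cells, the values were 171 and 567 CPM in WT, 395, 52.3, 101 and 469 in YAP3d and 53.4, 74.3 and 122 in YAP7d (log2 fold change -2.26, SE 0.62, adjusted p = 0.066). They were 2 clusters that divided by group, so this sets largely different clusters side by side. One held 12 and 49 WT cells and 0 YAP7d cells, and the other 16 and 8 WT cells and 92, 140 and 143 YAP7d cells. In the YAP7d cells of the other macrophage-like cluster, which held 418 YAP7d cells, 35 YAP3d cells and 13 WT cells, the level was 385, 95.3 and 301 CPM.

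In monocyte-like cells Il1b was at 1130 CPM (11 cells) and 814 CPM in WT, at 943 (6 cells), 598, 319 (8 cells) and 1361 CPM in YAP3d, and at 580, 132 and 505 CPM in YAP7d. All YAP7d libraries lay below both WT libraries. The fit left out YAP3d 1 and YAP3d 3, which had under 10 cells, and gave a log2 fold change of -1.20 between YAP7d and WT (SE 0.49, adjusted p = 0.567). It passed with no filter on low counts (-1.04, adjusted p = 0.0409) and with the replicate block (-1.75, adjusted p = 1.23e-06). Terms for the level of Gm10709, a predicted gene, over all cells of a library were also tried. The term at 10 CPM sets WT 1 and YAP3d 3 apart from all others, since WT 2 and YAP3d 4 lie just over it at 11.04 and 11.2 CPM, and the term at 100 CPM sets both WT libraries and YAP3d 3 and 4 apart from those at 347 CPM or more. With the term at 100 CPM the Il1b change was 0.19.

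Cxcl2, a ligand of Cxcr2, gave 19027 UMIs, of which 41.4% were in the top 1% of cells and up to 302 in 1 cell. Its mean level was 4136 ± 2009 CPM in neutrophil-like cells (n = 4), 386 ± 293 in macrophage-like, 371 ± 111 in monocyte-like and 50.5 ± 51.5 in type 2 dendritic-like cells. Neutrophil-like cells exceeded macrophage-like cells in 4 of 4 libraries, and monocyte-like exceeded type 2 dendritic-like cells in 6 of 6. Macrophage-like and monocyte-like cells did not differ beyond their spread. A Cxcl2 UMI was seen in 83.1% of neutrophil-like, 58.4% of macrophage-like and 51.4% of monocyte-like cells, or 71.6, 30.7 and 24.4% after thinning, against 9.91% of B-cell-like and 11.7% of T-cell-like cells (4.68 and 4.42% after thinning).

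**Figure D2:**
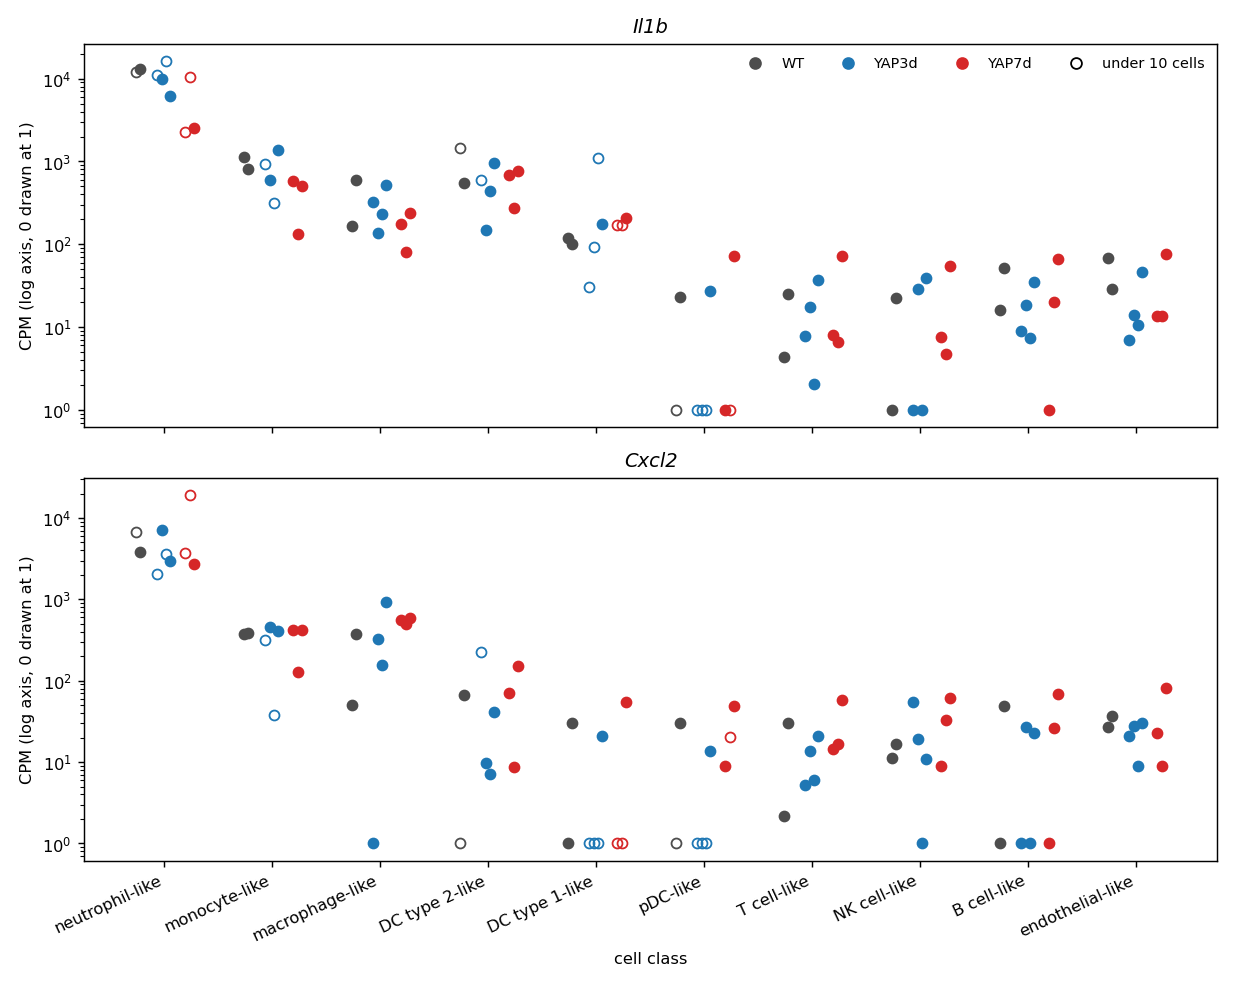
Il1b and Cxcl2 in each library by class. Each point is 1 library (CPM of the class, log axis, with a level of 0 drawn at 1), coloured by group and open where it rests on under 10 cells. For both genes the neutrophil-like libraries lie above the macrophage-like and monocyte-like ones, with class means of 7878 CPM for Il1b and 4136 CPM for Cxcl2.

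In macrophage-like cells Cxcl2 was at 51.0 and 377.4 CPM in WT, at 0 (12 cells), 322, 156 and 921 CPM in YAP3d and at 559, 495 and 591 CPM in YAP7d. YAP7d was narrow and above both WT libraries, but inside the range of YAP3d. A single cell held 67 of 201 UMIs in WT 2, 88 of 183 in YAP3d 2 and 150 of 520 in YAP3d 4. In YAP7d 1, YAP7d 2 and YAP7d 3 it held 149 of 1267, 76 of 1289 and 248 of 5674. The log2 fold change of YAP7d against WT was 1.12 (SE 0.77, adjusted p = 0.479). It was 0.55 without WT 1 and 3.52 without WT 2, and it passed with no filter on low counts (adjusted p = 0.0187) and with the replicate block (0.0051). Within YAP7d the 3 libraries had 939, 850 and 732 CPM in the macrophage-like cluster without Kupffer markers and 334, 341 and 319 CPM in the clusters with them. Il18 had the opposite order there, as given below. In monocyte-like cells Cxcl2 was at 373 and 386 CPM in WT and at 423, 128 and 420 CPM in YAP7d (log2 fold change -0.19, and 0.20 without YAP7d 2).

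Il1a is usually kept inside cells or on their surface and is released on damage. Its mean level was 184 ± 82.3 CPM in endothelial-like cells and 50.5 ± 23.9 CPM in macrophage-like cells (n = 9 each), and endothelial-like cells were higher in 9 of 9 libraries. A Il1a UMI was seen in 43.9% of endothelial-like and 33.3% of macrophage-like cells, or 27.6 and 7.58% after thinning, and in 1.81% of B-cell-like cells (1.08% after thinning). Endothelial-like cells had 4357 UMIs in the median and macrophage-like cells 12911. Monocyte-like cells had no library above 15.02 CPM.

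In endothelial-like cells Il1a was at 153 and 200 CPM in WT, at 347, 258, 199 and 180 CPM in YAP3d, and at 135, 113 and 69.1 CPM in YAP7d. All YAP7d libraries lay below all others. Il1a fell from YAP3d to YAP7d by 1.21 on the log2 scale (SE 0.27, adjusted p = 0.0060, 1 of 2 members that passed of 5 tested, where 16.9% of 7528 genes did). Without YAP7d 3 the change was -0.89 and did not pass (adjusted p = 0.061). Against WT the log2 fold change of YAP7d was -0.80 (SE 0.29, adjusted p = 0.0714), and no member passed where 18.0% of genes did. Il1a did pass there with no filter on low counts (adjusted p = 0.0060), with the term for Gm10709 at 10 or 100 CPM (0.0477 and 0.0423) and without YAP3d 4 (0.0428). The thinned share of endothelial-like cells with a Il1a UMI was 28.7% in WT, 29.0% in YAP3d and 10.8% in YAP7d, whereas before thinning, at median depths of 3954, 4337 and 11567 UMIs, it was 39.7, 46.8 and 45.05%.

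The endothelial-like cells of YAP7d were few and unlike those of the other groups. Of 111 cells, 89 were in a single cluster of 93. The summed level of the 19 endothelial markers was 28574, 26229 and 13926 CPM in WT, YAP3d and YAP7d, and that of 18 genes induced by tissue dissociation 11826, 10186 and 4927 CPM. 14 of these 18 genes fell and Hspe1 rose between WT and YAP7d. Macrophage markers summed to 1211, 1308 and 1083 CPM in the same cells. The part of these differences in the Il1a result was not tested.

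Tnf was low in the same cells, with its highest levels in YAP7d 1 and YAP7d 2. In endothelial-like cells it was at 10.6 and 12.1 CPM in WT, at 6.94, 4.61, 7.11 and 7.27 CPM in YAP3d and at 49.7, 22.5 and 11.1 CPM in YAP7d. These rest on few molecules, with 9 and 28 UMIs in WT, 2, 1, 4 and 27 in YAP3d and 11, 5 and 10 in YAP7d, where the 11 came from 3 cells. Between YAP3d and YAP7d Tnf had a log2 fold change of 1.77 (SE 0.55, adjusted p = 0.037). It met the filter on low counts only through YAP7d 1 and YAP7d 2, where it was highest, so the call is not read as a rise. Tnf was tested in 14 of 19 alternatives and passed in 7 of them. Its log2 fold change against WT was 1.052 (SE 0.56, adjusted p = 0.216). Leaving out WT 1, WT 2, YAP3d 1 or YAP3d 3 each ended the call, with adjusted p-values of 0.0546, 0.0567, 0.0555 and 0.0679, as did the replicate block (0.0959) and the term for Gm10709 at 10 or 100 CPM (0.0578 and 0.213). With only the groups compared, or without YAP3d 4 or any of the YAP7d libraries, the filter on low counts left Tnf out, so whether the call rests on the library at 49.7 CPM could not be measured in this fit. Cxcl2 (1.12) and Il1b (0.80) had positive log2 fold changes between the same groups, and Cxcl1 0.25, without passing. Il1b in endothelial-like cells was read as background above, which was higher in YAP7d 3.

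Across classes Tnf was broad. Its mean level was 82.8 ± 68.1 CPM in neutrophil-like, 74.3 ± 41.8 in type 2 dendritic-like (with the same limit as for Il1b), 61.4 ± 65.1 in plasmacytoid dendritic-like, 48.4 ± 71.0 in monocyte-like and 43.9 ± 35.3 CPM in macrophage-like cells, with no step beyond the spread. T-cell-like cells had a Tnf UMI in 11.3% of cells (5.37% thinned), above the 1.90% of B-cell-like cells (0.72% thinned). In macrophage-like cells the levels were 12.8 and 103 CPM in WT, 17.2, 38.7, 18.4 and 97.5 in YAP3d and 28.7, 17.3 and 61.0 in YAP7d. Those groups overlapped throughout, and the log2 fold change of YAP7d against WT was -1.07 (SE 0.62, adjusted p = 0.389). It was 1.64 without WT 2 and 0.057 with the term for Gm10709 at 100 CPM. Single cells weighed heavily elsewhere: 15 of 18 Tnf UMIs in the monocyte-like cells of WT 1 and 25 of 37 in the T-cell-like cells of YAP3d 3 came from 1 cell.

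**Figure D3:**
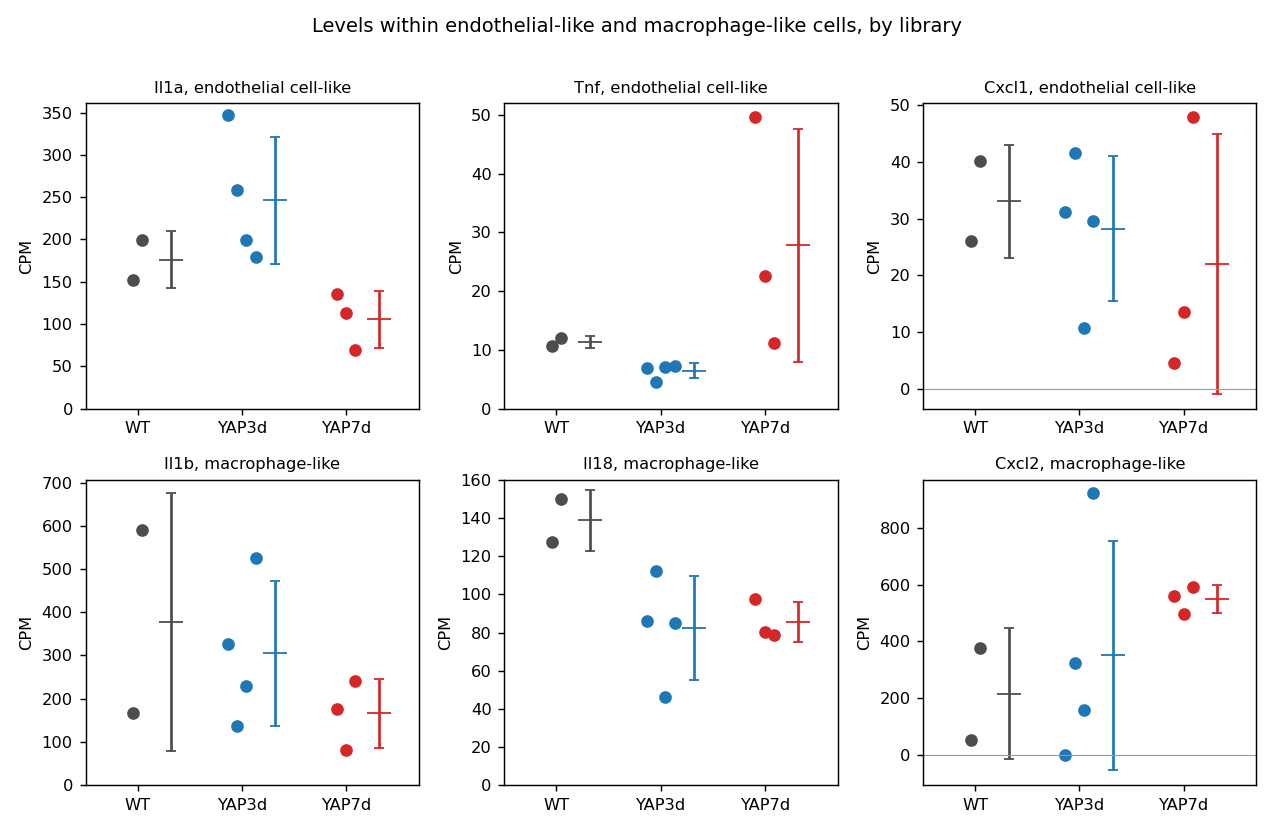
Members within a class, by library. Points are CPM of Il1a, Tnf and Cxcl1 in endothelial-like cells and of Il1b, Il18 and Cxcl2 in macrophage-like cells, with the mean and SD of each group. For Il1a in endothelial-like cells the 3 YAP7d libraries (69.1 to 135 CPM) lie below the others, while for Cxcl1 the groups overlap.

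Il18, which stimulates NK and T cells to make interferon gamma, was highest in macrophage-like cells with 96.0 ± 30.6 CPM (n = 9), followed by type 1 dendritic-like (61.6 ± 18.5), cholangiocyte-like (43.2 ± 1.4, n = 2) and monocyte-like cells (43.0 ± 11.9). A Il18 UMI was seen in 53.1% of macrophage-like cells (14.8% thinned) and in 0.92% of endothelial-like cells. Clusters with Kupffer markers held the higher level. In the YAP7d libraries they had 132, 96.3 and 138 CPM against 39.1, 43.2 and 48.3 CPM in the other macrophage-like cluster. For Cxcl2 that cluster was the higher one, so the macrophage-like class was not uniform in these 2 genes. Il1a followed Il18, with 54.8, 41.8 and 50.6 CPM in the Kupffer-marker clusters of YAP7d and 20.2, 21.6 and 24.2 CPM in the other.

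The macrophage-like level of Il18 was 128 and 150 CPM in WT, 86.1, 113, 45.9 and 85.1 in YAP3d and 97.5, 80.2 and 78.8 in YAP7d. Both induced groups lay below WT in every library. The level of WT 1 rests on 10 Il18 UMIs in 5 of 30 cells, so its order against the induced libraries could not be measured at this depth. The log2 fold change of YAP7d was -0.75 (SE 0.32, adjusted p = 0.228) and -0.28 within the Kupffer-marker clusters, which divide by group as given for Il1b. In those clusters 1.64% of 5982 genes passed and no member did.

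Il1rn, the receptor antagonist, had 310 ± 148 CPM in neutrophil-like, 113 ± 197 in monocyte-like and 48.6 ± 31.0 CPM in macrophage-like cells. In monocyte-like cells it was at 554 and 100 CPM in WT, at 67.3 (6 cells), 34.5, 0 (8 cells) and 47.3 CPM in YAP3d and at 17.5, 10.7 and 24.8 CPM in YAP7d. WT 1 held 11 such cells, and 34 of its 49 Il1rn UMIs were in 1 cell, as were 20 of the 40 of WT 2. All YAP7d libraries lay below both WT libraries. Il1rn was the only member that passed among 6 tested in monocyte-like cells, where 0.131% of 6125 genes did, with a log2 fold change of -3.74 (SE 0.58, adjusted p = 0.0326). Without WT 1 the change was -2.30 (adjusted p = 0.305), without YAP7d 2 -3.59 (0.141) and without YAP7d 3 -4.21 (0.103), so each of these libraries decided the call. A term for libraries with Gm10709 at 10 or 100 CPM or more ended it too (adjusted p = 0.246 and 0.911). The other 5 members tested were all below 0, with a median of -1.80 for the 6 against 0.00 for all genes. Il6 (-3.40) and Tnf (-2.40) were the largest of them, without passing (edgeR adjusted p = 0.235 and 0.547). Il6 was 0.55 without WT 1 and 0.57 with the Gm10709 term at 10 CPM, so its direction rests on WT 1, and it passed without WT 2 (-4.57, adjusted p = 0.0008) or YAP3d 2 (-3.24, adjusted p = 0.0464). Tnf ranged from -4.32 to -0.89 with 1 library left out. Both passed with no filter on low counts and with the replicate block.

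Il6 was concentrated in few cells, with 77.5% of its 995 UMIs in the top 1% of all cells. A Il6 UMI was seen in 19 of 22 basophil- or mast-cell-like cells, a class with raised Mcpt8, Fcer1a and Cpa3, and in 0.17% of B-cell-like cells. Its counts there were 46 UMIs in WT 2, of which 42 lay in 1 cell, 19, 1, 14 and 1 in YAP3d, and 9 and 81 in YAP7d 1 and YAP7d 3. Macrophage-like cells had Il6 at 0 and 9.4 CPM in WT, at 86.1 (12 cells), 14.1, 9.2 and 28.4 CPM in YAP3d and at 22.9, 35.7 and 15.01 CPM in YAP7d. The 0 of WT 1 allows up to 38.3 CPM, so its order against YAP7d could not be measured at this depth. The log2 fold change of YAP7d against WT was 1.56 (SE 0.81, adjusted p = 0.329), and without WT 2, with WT at 0, it was 8.51. No neutrophil-like cell had a Il6 UMI, and 0 of 154 cells allow a share of up to 1.95% of cells with a UMI. In monocyte-like cells 41 of 44 UMIs of WT 1 came from 1 cell.

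Il10, which restrains macrophages and T cells, was the least detected member, with 312 UMIs in 1.43% of cells and 88.5% of them in the top 1% of cells. Macrophage-like cells had 0 and 30.04 CPM in WT, 34.4, 0, 9.2 and 10.6 in YAP3d and 13.2, 3.1 and 9.7 in YAP7d. The groups overlapped. In T-cell-like cells 25 UMIs of YAP3d 3 and 20 of the 21 of YAP3d 4 were each in 1 cell.

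Cxcl1, the other Cxcr2 ligand, gave 1019 UMIs, with 72.7% in the top 1% of cells. Its mean level was 178 ± 36.2 CPM in cholangiocyte-like (n = 2), 27.2 in endothelial-like (n = 9, 4.5 to 47.9 CPM) and 8.13 ± 7.57 CPM in macrophage-like cells. Cholangiocyte-like cells were above endothelial-like cells in 2 of 2 libraries, at 152 CPM (14 cells) and 203 CPM, where 20 of 23 UMIs lay in 1 of 15 cells. Endothelial-like levels were 26.0 and 40.1 CPM in WT, 31.2, 41.5, 10.7 and 29.6 in YAP3d and 4.5, 13.5 and 47.9 in YAP7d. They overlapped fully, and the log2 fold change of YAP7d against WT was -0.10 with a 95% interval of -1.12 to 0.92. In stellate-like cells only YAP3d 4 held 10 cells, at 479 CPM, with all 42 UMIs in 2 cells. Of endothelial-like cells 7.58% had a Cxcl1 UMI (4.65% thinned), against 0.69% of B-cell-like cells.

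The unnamed cluster was a further source of Cxcl1 and Cxcl2. It held 22 cells, 15 of them from WT 2, and its leading genes included Prg4, Alox15, Saa3, Serpinb2 and Slpi. Those 15 cells had 207 Cxcl1 UMIs (1060 CPM, in 8 cells) and 1241 Cxcl2 UMIs (6352 CPM, neutrophil-like mean 4136 CPM). They gave 60.9% of all Cxcl1 UMIs and 61.6% of all Cxcl2 UMIs of WT 2. The level of either chemokine over all cells of that library therefore rests on 15 cells. In YAP3d 2, YAP3d 4 and YAP7d 3 the cluster had 0 Cxcl1 UMIs. Of the Il6 UMIs over all cells, it held 101 of 166 in WT 2 and 43 of 88 in YAP3d 4.

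The classes that supplied each transcript shifted between the groups. Endothelial-like cells held a mean of 91.1% of Il1a UMIs in WT, 85.4% in YAP3d and 19.5% in YAP7d, and macrophage-like cells 5.05, 11.4 and 75.1%. For Il1b the neutrophil-like share was 33.5, 40.7 and 7.41% and the macrophage-like share 11.1, 8.28 and 39.9%. Macrophage-like cells held 6.67, 17.7 and 72.4% of Cxcl2, 47.7, 32.9 and 78.0% of Il18, 13.7, 12.7 and 51.2% of Tnf and 12.1, 37.2 and 73.5% of Il1rn. By mean share the macrophage-like class was the largest source of each of these 6 genes in YAP7d, but for Il1b this rests on YAP7d 2, with 210 of 329 UMIs. In YAP7d 1 and YAP7d 3 monocyte-like cells held more Il1b UMIs (497 against 401, and 3621 against 2301). Its share of cells was also higher in YAP7d, as given above.

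**Figure D4:**
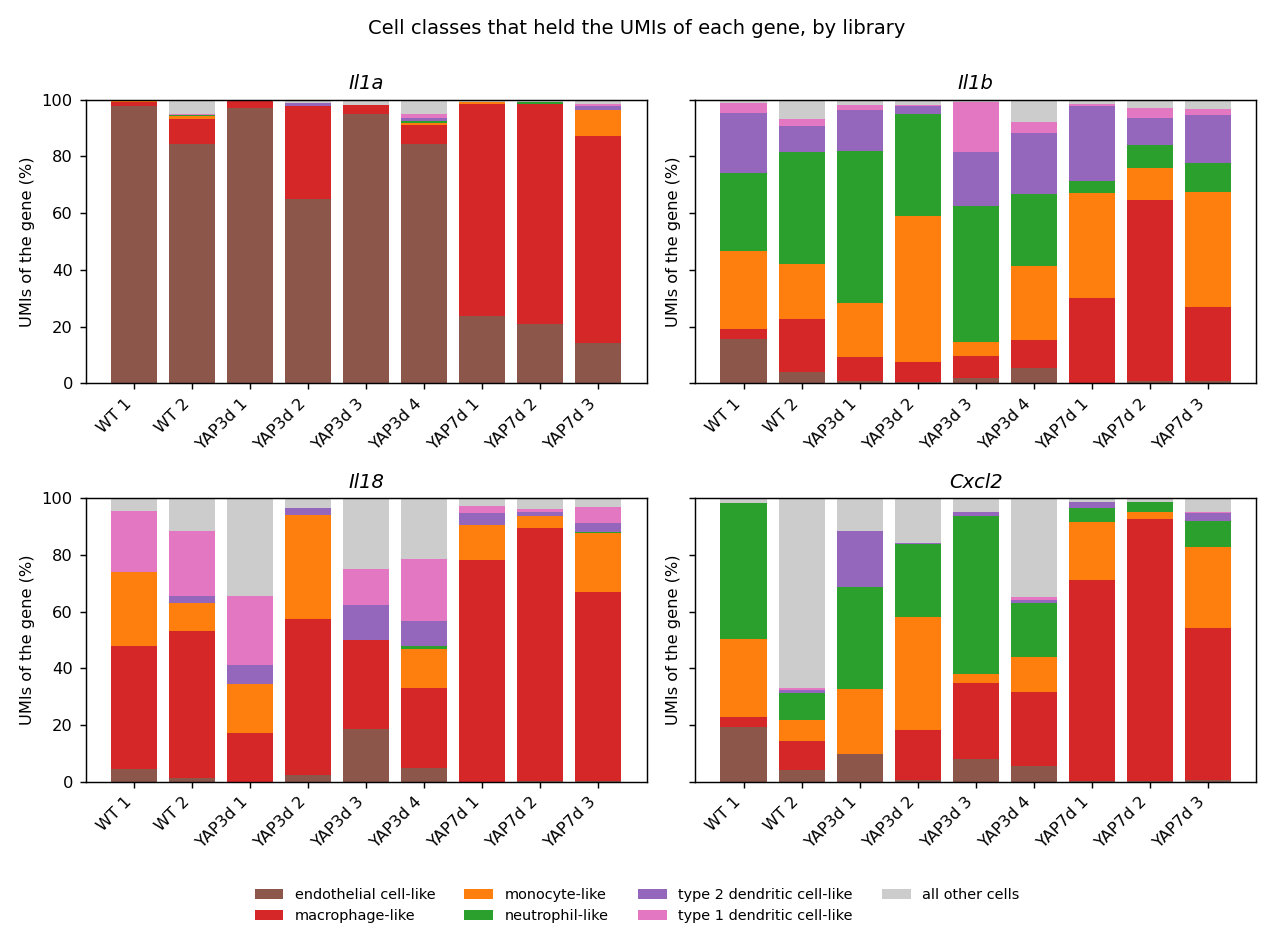
Cell classes that held the UMIs of Il1a, Il1b, Il18 and Cxcl2. Each bar is 1 library and adds up to all UMIs of the gene in it, in percent, with the smaller classes and the unnamed cells in grey. Macrophage-like cells take a mean of 75.1% of Il1a and 72.4% of Cxcl2 in YAP7d, against 5.05% and 6.67% in WT.

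Over all cells of a library, Il1a was at 68.9 and 74.7 CPM in WT, at 79.9, 28.4, 69.2 and 60.4 CPM in YAP3d and at 22.2, 28.8 and 17.4 CPM in YAP7d. YAP7d was below WT in every library and overlapped YAP3d through YAP3d 2. Il1a fell between WT and YAP7d by 1.51 on the log2 scale (SE 0.34, adjusted p = 0.0164) and between YAP3d and YAP7d by 1.23 (SE 0.30, adjusted p = 0.0224). Il18 was at 12.0 and 21.0 CPM in WT, at 22.5, 38.7, 9.4 and 12.9 in YAP3d and at 49.5, 56.5 and 45.1 in YAP7d, where every library was above all others. Il18 rose between WT and YAP7d by 1.71 on the log2 scale (SE 0.50, adjusted p = 0.0408) and between YAP3d and YAP7d by 1.42 (SE 0.40, adjusted p = 0.0372). In both comparisons 2 of 9 members passed, where 18.1% and 16.5% of 12071 genes did. The median of the members was 0.09 and 0.32, against -0.02 and -0.07 for all genes.

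Single libraries and 1 covariate decided some of these calls. Against WT, Il1a did not pass without WT 1 (adjusted p = 0.0606) or WT 2 (0.0903), and Il18 did not pass without WT 1 (0.242), WT 2 (0.101), YAP3d 1 (0.0626) or any of the YAP7d libraries (0.0691, 0.0827 and 0.0788). Between YAP3d and YAP7d, Il1a did not pass without YAP3d 1, 3 or 4 or YAP7d 1 or 3 (0.0571 to 0.0829), nor Il18 without YAP3d 1, 3 or 4 or any YAP7d library (0.0704 to 0.0982). With the replicate number as a block, neither passed between YAP3d and YAP7d (0.1 and 0.0573), while both did between WT and YAP7d. With the terms for Gm10709 at 10 or 100 CPM, Il18 did not pass between WT and YAP7d (log2 fold change 1.27, adjusted p = 0.114, and 0.33, adjusted p = 0.863). Il1a passed with the term at 10 CPM (-1.48, adjusted p = 0.0498) and not at 100 CPM (-1.17, adjusted p = 0.489). Between YAP3d and YAP7d both passed at 10 CPM and neither at 100 CPM (0.156 for Il1a and 0.194 for Il18).

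The other members did not pass over all cells with all 9 libraries. Cxcl2 was at 62.1 and 275 CPM in WT, at 47.3, 342, 37.0 and 152 in YAP3d and at 312, 335 and 421 in YAP7d. YAP7d was above both WT libraries (log2 fold change 1.24, SE 0.90, adjusted p = 0.346). Il1b stayed between 79.1 and 354 CPM in all 9 libraries (log2 fold change 0.31, SE 0.55, adjusted p = 0.720, and -0.34 without YAP7d 3). Cxcl1 was at 12.0 and 46.3 CPM in WT and 3.3, 3.8 and 15.1 CPM in YAP7d (-1.67, SE 0.79, adjusted p = 0.158). Without YAP7d 3 it passed (-3.02, adjusted p = 0.0417), and without WT 2 it was -0.29. Il6 differed between YAP3d and YAP7d by 1.14 (SE 0.36, adjusted p = 0.0572), and DESeq2 gave an adjusted p of 0.0210. Tnf (0.37), Il6 (-0.17), Il10 (0.06) and Il1rn (0.09) had small log2 fold changes between YAP7d and WT.

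Levels were also computed at 1 fixed class mix, in which every class has the same weight in every library. Classes with under 10 cells entered too. WT 1 held 5 neutrophil-like and 5 type 2 dendritic-like cells, and YAP7d 2 held 1 neutrophil-like cell. The Il1b values of these libraries therefore rest in part on few cells, which the SDs below do not show. At this mix Il18 was at 39.1 ± 3.1, 29.0 ± 10.7 and 29.2 ± 2.0 CPM in WT, YAP3d and YAP7d, which is the opposite order of WT and YAP7d to that over all cells. Il1b was at 358 ± 3.0, 290 ± 82.7 and 177 ± 39.8 CPM, and Il1a at 50.2 ± 18.1, 62.7 ± 13.2 and 30.6 ± 7.4 CPM. Cxcl2 was at 156 ± 64.2, 166 ± 120 and 259 ± 48.3 CPM. By an exact two-sided permutation test over libraries, the differences of YAP7d from WT were -9.94 CPM for Il18, -181 for Il1b and -19.5 for Il1a (p = 0.1 each, the smallest p that 3 against 2 libraries allow) and 103 for Cxcl2 (p = 0.2). Between YAP7d and YAP3d, Il1b differed by -112 CPM (exact permutation p = 0.0857) and Il1a by -32.0 CPM (exact permutation p = 0.0571). These p-values are not adjusted for the 9 members.

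**Figure D5:**
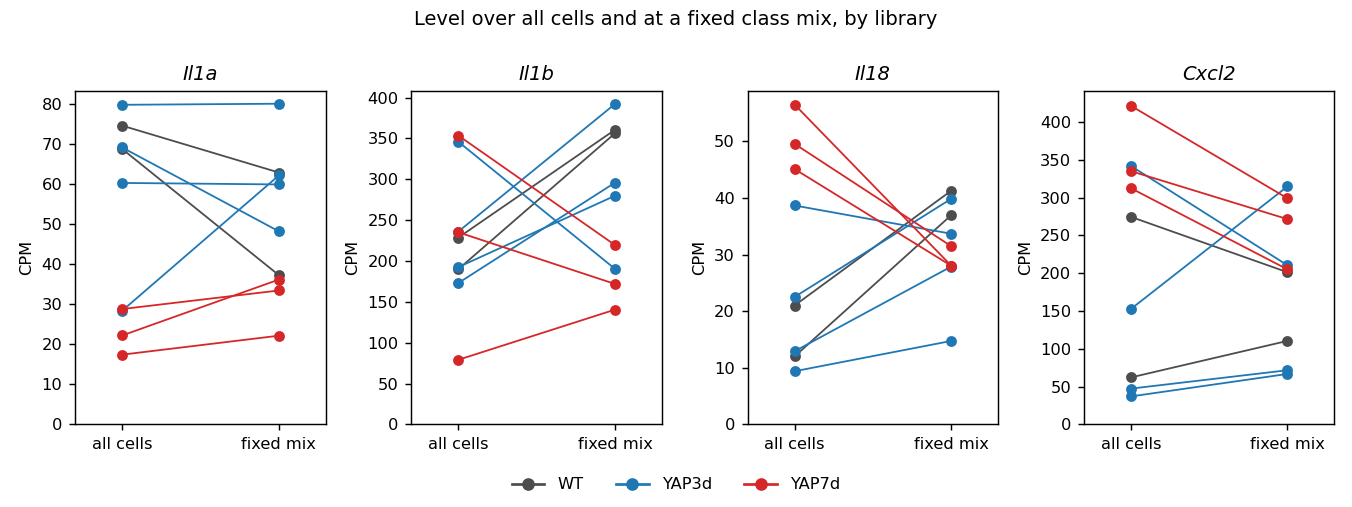
Level of Il1a, Il1b, Il18 and Cxcl2 over all cells as measured (left) and at 1 fixed class mix (right). Each point is 1 library in CPM, coloured by group, and a line joins both values of a library. Il18 as measured is highest in YAP7d (45.1 to 56.5 CPM), whereas at the fixed mix YAP7d has a mean of 29.2 CPM against 39.1 CPM in WT.

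Acute induction left the members without a call. Between YAP3d and WT no member passed edgeR in macrophage-like (8 tested), monocyte-like (6), endothelial-like (5) or T-cell-like cells (3), or over all cells (9), and 0.0% of all genes passed in each. At an unadjusted p below 0.05 there were 278, 209, 145, 97 and 358 genes, and 1, 2, 0, 0 and 1 members, and DESeq2 called 0, 1, 0, 0 and 12 genes. The gene called by DESeq2 in monocyte-like cells was Il1rn (log2 fold change -2.83 in edgeR, adjusted p = 0.9999, and 0.0444 in DESeq2).

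In macrophage-like cells no member passed between YAP7d and WT, where 1.83% of 6764 genes did, or between YAP7d and YAP3d, where 0.296% did. Of 8 members tested 6 lay below 0 in each comparison, with medians of -0.86 and -0.28 against 0.04 and 0.02 for all genes. Against WT, 4 of these 6 (Il1a, Il1b, Tnf and Il10) lay above 0 without WT 2. Against WT 3 members had an unadjusted p below 0.05, and edgeR had 1221 such genes while DESeq2 called 212. In T-cell-like cells Il1b, Cxcl2 and Tnf were tested, and none passed between YAP7d and WT (0.0% of 6594 genes, with 583 at an unadjusted p below 0.05, and 35 called in DESeq2) or between YAP7d and YAP3d (1.0% of genes). Their log2 fold changes against WT were 1.12, 0.84 and 0.55. The T-cell-like means of Il1b and Cxcl2 (20.1 and 18.5 CPM) were like the B-cell-like means (24.8 and 21.8 CPM). For Il1b this was read as background above, which was higher in YAP7d 3. In monocyte-like cells no member passed between YAP7d and YAP3d, where 0.0163% of genes did, and 5 of 6 lay below 0.

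The receptors of these ligands were spread over several classes, some of them the class in which the ligand was highest. Il1r1, the signalling receptor of interleukin 1, was mainly endothelial (27.9 ± 10.2 CPM, n = 9, 78.1% of its UMIs), and Il1r2, the decoy receptor, was neutrophil-like (863 ± 353 CPM, n = 4). Il18r1 was found in NK-like (97.3 ± 48.3 CPM) and T-cell-like cells (54.2 ± 18.4 CPM), with 34.2 and 56.6% of its UMIs. Il18bp, which binds and blocks Il18, was macrophage-like (350 ± 221 CPM, 85.5% of its UMIs). Cxcr2, the receptor of both chemokines, was neutrophil-like (473 ± 222 CPM), while Cxcr1 had 6 UMIs in all. Il6st, the shared signalling chain of the Il6 family, was endothelial (453 ± 256 CPM), and Il6ra was highest in monocyte-like cells (116 ± 31.8 CPM). Tnfrsf1a was highest in endothelial-like cells (317 ± 45.9 CPM) and Tnfrsf1b in monocyte-like cells (187 ± 49.4 CPM).

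Between WT and YAP7d over all cells, 3 of 14 tested receptors and decoys fell and none rose, against 18.1% of all genes called: Il1r1 by 2.78, Il6st by 3.81 and Ackr1, a scavenger of chemokines, by 5.25 on the log2 scale. Il33, an alarmin of the same cytokine family, fell by 3.92 as the 1 of 8 other ligands that passed. Within endothelial-like cells, where 18.0% of genes were called, 2 of 6 receptors fell, Il6st (-2.28) and Ackr1 (-2.41). In macrophage-like cells, where 1.83% of genes were called, 1 of 7 fell against WT, Il18bp (-1.90, SE 0.46, adjusted p = 0.0463). Between YAP3d and YAP7d over all cells, where 16.5% of genes were called, 1 of 14 rose, Il18bp (1.87), and 4 fell. In T-cell-like cells none of 8 passed.

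Few genes that act downstream or in maturation passed within the myeloid classes, where 1.83% of genes were called in macrophage-like and 0.131% in monocyte-like cells between WT and YAP7d. Of 16 genes of NF-kB signalling and feedback none passed in macrophage-like cells between WT and YAP7d, where 15 lay below 0 with a median of -0.65, nor in monocyte-like cells (median -0.51). None of 7 inflammasome genes passed in either class, nor did any of the STAT3 genes, of which 3 of 4 lay below 0 in macrophage-like cells (median -0.70) and 1 of 6 in monocyte-like cells (median 0.64). Ly96, a co-receptor for lipopolysaccharide, was the 1 of 8 genes of the Toll-like receptor pathway that fell in macrophage-like cells (-1.44). The 18 dissociation genes had medians of -0.92 and -0.53 in these classes, and 2 of them, Egr1 (-2.43) and Dnajb1 (-1.96), fell in macrophage-like cells. In both classes the summed dissociation genes were lower in YAP7d, at 11094, 9548 and 6700 CPM in macrophage-like and 16211, 16213 and 10931 CPM in monocyte-like cells of WT, YAP3d and YAP7d. Their part in the member values of these classes was not tested. In endothelial-like cells, where 18.0% of 7528 genes were called, 1 of 16 NF-kB genes (Nfkbiz, -1.44), 1 of 4 inflammasome genes (Casp4, -1.12), 1 of 5 Toll-like receptor genes (Ly96, -1.59) and 3 of 6 STAT3 genes (Osmr, -2.44, Lifr, -2.13 and Socs1, -1.18) fell.

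Over 80 sums of a library and a class, which share libraries and depth, the genes whose log2 level was most like that of Il1b were Lst1 (r = 0.87), Cd14 and Ccl6 (0.86 each). For Il1rn they were Fpr2 (0.87), Clec5a (0.86) and Nlrp3 (0.85), and for Cxcl2 Pilra (0.78) and Trem1 (0.77). The genes most like Il1a were Scarf1 (0.87), Mrc1 and Ptprm (0.84 each), and those most like Il18 and Cxcl1 were Shtn1 (0.79) and Grb10 (0.78). For Tnf, Il6 and Il10 the best values were lower, with Cfl1 (0.62), Dram1 (0.69) and Tmem26 (0.55). Among the members, Il1b with Il1rn (0.78), Il1rn with Cxcl2 (0.74) and Il1b with Cxcl2 (0.72) were the most alike. The neighbours on the chromosome were not alike, with 0.22 for Il1a with Il1b and 0.23 for Cxcl1 with Cxcl2.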

How the data were processed

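Cells of 9 libraries (2 WT, 4 YAP3d and 3 YAP7d) were profiled by droplet 3' single-cell RNA-seq. The authors aligned the reads to mm10 with Cell Ranger and used Seurat 2, and the deposited table holds raw UMI counts per gene and cell, not normalized, with the library in the name of each cell. The labels name v2 and v3 kits, and the methods assign v2 to these whole-liver libraries. Positions were taken from RefSeq (GRCm38.p6), where 22794 symbols of the table and all 9 members were found. The members, lists and markers were chosen with earlier results of these data known, and the motifs with the upstream sequences in view.

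Cells under 200 genes were left out, and 353 cells with over 10% mitochondrial counts were kept. Counts were scaled to 10000 per cell and clustered (scanpy 1.11.5, igraph 0.11.9, 2402 of 2500 variable genes with the members and listed genes left out, 30 components, 15 neighbours, Leiden resolution 1, seed 0), giving 25 clusters. A cluster was named when at least 3 markers of a class were raised by a log2 fold over 1 and no other class had more markers among its top 10 genes. Of 193 markers 189 were in the table. Scrublet called 61 doublets (0.715%), which were kept.

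Counts were summed per library and class. Libraries with at least 10 cells entered, genes were filtered with filterByExpr, scaled with TMM and fitted over all 3 groups in edgeR 4.0.16 (R 4.3.3, quasi-likelihood F test), with a Benjamini-Hochberg adjusted p of 0.05 over all genes of the fit. DESeq2 1.42.0 was an alternative, and fits were tested on simulated data. Levels at a fixed class mix weight each class by its mean share and were compared with exact two-sided permutation tests (scipy 1.17.1). Alike genes needed 100 UMIs and were ranked by Pearson's r of log2(CPM + 1). Limits for a count of 0 use 3 counts and cover counting error only. The members were named whatever their change, and other listed genes where they passed or as the receptors of members. Alternatives were other scaling, no filter, a stricter cell filter, Leiden resolution 2, no doublets, fits of 2 groups, a replicate block, a term for libraries with a high level of Gm10709, and each library left out.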

Additional observations from a re-analysis of the deposited data

Results flagged for a closer look

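Among 24 groups of 4 YAP3d libraries examined, 1 held a library apart from the rest, where chance alone gives about 1 in 20. Tnf in endothelial-like cells was at 4.61 CPM in YAP3d 2, from 1 UMI, against 6.94 to 7.27 CPM in the other three libraries.

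For 3 members the direct comparison of YAP7d with YAP3d passed. In endothelial-like cells Il1a had a log2 fold change of -1.21 and Tnf of 1.77. Tnf met the filter on low counts there only through YAP7d 1 and YAP7d 2, where it was highest, so its call is not read as a rise. Over all cells Il1a had -1.23 and Il18 1.42. Tnf passed in 7 of the 14 alternatives in which it was tested, and Il1a in endothelial-like cells did not pass without YAP7d 3. Over all cells neither Il1a nor Il18 passed with the replicate block or the Gm10709 term at 100 CPM, and the call was lost without any 1 of 5 libraries for Il1a and of 6 for Il18. At the fixed class mix Il18 was at 29.0 CPM in YAP3d and 29.2 CPM in YAP7d.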

How the results depend on the processing

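The number of genes called depended on the processing more than the direction of the members did. With few cells in WT, counts in monocyte-like cells rest on single cells, and depth limits what can be seen of Il10, Il6 and Cxcl1. The causes of the shifts below were not tested. Of 488 fold changes of members under an alternative, 414 kept their direction and side of the threshold.

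With DESeq2 the genes called were 212 instead of 124 in macrophage-like cells between YAP7d and WT and 53 instead of 20 between YAP7d and YAP3d. In monocyte-like cells they were 28 instead of 8 between YAP7d and WT, 1 (the member Il1rn) instead of 0 between YAP3d and WT, and 4 instead of 1 between YAP7d and YAP3d. In T-cell-like cells they were 35 instead of 0 and 111 instead of 66 for YAP7d against WT and YAP3d, and over all cells 12 instead of 0 between YAP3d and WT.

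With only the Kupffer-marker clusters, an alternative chosen after seeing the data, 44 genes were called between YAP7d and YAP3d, and Il1rn in macrophage-like cells had a log2 fold change of 0.062 instead of -0.23 against WT. Leiden resolution 2 gave 0 genes in monocyte-like cells between YAP7d and YAP3d. The stricter cell filter (500 genes, 10% mitochondrial counts) gave 45 genes in macrophage-like cells against WT and 6 against YAP3d.

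With no filter on low counts, macrophage-like cells had 524 (1 member), 14 and 268 genes for YAP7d against WT, YAP3d against WT and YAP7d against YAP3d. Monocyte-like cells had 171 (4 members), 30 (2) and 76 (1), and T-cell-like cells 236, 24 (1 member) and 441 (2). Endothelial-like cells had 1 member called between YAP7d and WT and 38 genes between YAP3d and WT.

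With only the groups compared, there were 504 and 6 genes in macrophage-like cells and 39 and 0 in monocyte-like cells for YAP7d against WT and YAP3d, 48 in T-cell-like cells against WT, and 1 member in endothelial-like cells between YAP7d and YAP3d.

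Same-numbered libraries did not consistently deviate together (correlations of -0.285 to 0.209, above 0 among the number 1 libraries), so the replicate numbers do not pair them. Higher values occurred across numbers. Over all cells they were 0.264 for WT 2 with YAP3d 4, 0.336 for WT 2 with YAP7d 3 and 0.443 for YAP3d 4 with YAP7d 3. What these libraries share was not tested. With the replicate block, macrophage-like cells had 397 (2 members), 38 and 43 (1) genes for YAP7d against WT, YAP3d against WT and YAP7d against YAP3d. Monocyte-like cells had 104 (4 members), 84 and 34 (3), T-cell-like cells 155, 43 and 294 (2), and endothelial-like cells 24 (1 member) between YAP3d and WT. Over all cells there were 3 genes between YAP3d and WT and 904 (0 members) between YAP7d and YAP3d.

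With a term for libraries with Gm10709 at 10 CPM or more (all but WT 1 and YAP3d 3), macrophage-like cells had 29 and 8 genes, monocyte-like cells 0 (0 members) and 0, for YAP7d against WT and YAP3d. Endothelial-like cells had 1 member in each, T-cell-like cells 14 genes against YAP3d, and all cells 948 (1 member) against WT. Il6 in monocyte-like cells had 0.57 instead of -3.40. With the term at 100 CPM, added after seeing the data, the counts in the same order were 0 and 2, 1 (0 members) and 3, 238 (1) and 447 (1) in endothelial-like cells, 5 in T-cell-like cells, and 0 (0 members) and 114 (0) over all cells. Against WT in macrophage-like cells Il1rn had 0.14, Tnf 0.057 and Il10 0.14, and Il1b in monocyte-like cells 0.19. Cxcl1 in endothelial-like cells had -0.13 between YAP7d and YAP3d.

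Leaving out 1 library in turn gave, for YAP7d against WT, 1 to 486 genes in macrophage-like, 0 to 72 in monocyte-like, 653 to 1379 in endothelial-like and 0 to 21 in T-cell-like cells, and 509 to 3179 over all cells. For YAP7d against YAP3d it gave 4 to 502, 0 to 40, 700 to 1279, 3 to 101 and 860 to 3569. For YAP3d against WT it gave 0 to 1 in macrophage-like, 0 to 12 in monocyte-like and 0 to 7 in endothelial-like cells. Members called were 0 to 2 in monocyte-like, 0 to 1 in endothelial-like and 0 to 2 in all cells for YAP7d against WT, 0 to 2 in endothelial-like and 0 to 3 in all cells for YAP7d against YAP3d, and 0 to 2 in monocyte-like cells for YAP3d against WT.

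Some log2 fold changes of YAP7d against WT changed sign with 1 library left out. In macrophage-like cells Il10 ranged from -1.76 to 7.09, Il1a from -1.26 to 0.61, Il1b from -1.79 to 0.12 and Tnf from -1.87 to 1.64. The highest value of each was the fit without WT 2. In monocyte-like cells Il6 ranged from -4.57 to 0.55 (without WT 1) and Cxcl2 from -0.47 to 0.20 (without YAP7d 2). Cxcl1 in endothelial-like cells ranged from -1.88 to 0.28, and from -1.52 to 0.57 against YAP3d. Il1b over all cells ranged from -0.34 (without YAP7d 3) to 0.74, and Cxcl1 at the fixed class mix from -9.74 to 2.88 CPM (without WT 2).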

Other observations

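Libraries also stood apart by Gm10709, a predicted gene, which was at 3.65 and 11.0 CPM over all cells in WT, at 347, 428, 4.69 and 11.2 CPM in YAP3d and at 363, 392 and 611 CPM in YAP7d. All YAP7d libraries and 2 of 4 YAP3d libraries were therefore high, and WT was low. Within the high libraries Il1a over all cells was at 79.9 and 28.4 CPM in YAP3d and at 17.4 to 28.8 CPM in YAP7d, and Il18 at 22.5 and 38.7 CPM in YAP3d and at 45.1 to 56.5 CPM in YAP7d. What this gene marks was not tested, and for WT and YAP7d it cannot be told apart from the groups.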
